A study of Homo sapiens with 12 samples.

Results

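The RNAs described here are the genes whose symbol is LINC followed by a number, the naming series for long intergenic non-protein-coding RNAs, and whose mean normalised read count was at least 100 over the 12 libraries of the series. They were chosen by that mean level over all groups, so an RNA could enter through the groups in which it was high. The other genes with a mean of at least 100, used below for comparison, met the same threshold. Of 62069 Ensembl identifiers in the deposited table, 39007 had a symbol, 2053 of these had a LINC symbol, and 119 met the threshold. A further 890 of the LINC identifiers were at 0 in every library. All 119 passed the filter of the test, 3 or more libraries with a value of 10 or above, which kept 19281 genes and 343 LINC genes in all. The cells were CUTLL1, an established human T-cell acute lymphoblastic leukaemia line whose NOTCH1 gene is rearranged and active, and poly-A RNA was sequenced. The labels give 4 groups of 3 libraries. Cells received DMSO, the solvent, or 1 µM Compound E, a gamma-secretase inhibitor (GSI), and were harvested after 12 or 48 h, which gives the groups DMSO 12 h, GSI 12 h, DMSO 48 h and GSI 48 h. Gamma-secretase cuts NOTCH1 and so frees its signalling fragment, and the comparison of treatments asks which transcripts depend on that signal. CUTLL1 is a single line, and since the labels leave unsaid if replicates were grown separately, each p-value refers to library-to-library spread, which may be technical.

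Long non-coding RNAs are transcribed and usually spliced and polyadenylated like messenger RNAs but carry no long conserved reading frame. Some act on the chromatin or transcription of genes near them, some host microRNAs, and for most of those with a LINC symbol no function is established. Their expression is often more restricted to a cell type than that of coding genes, in T cells and their leukaemias as elsewhere.

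The name intergenic described most of the 119 and not all. In GENCODE 29, 88 were annotated as lincRNA, 10 as antisense, 10 as processed transcript, 6 as transcribed pseudogenes of either kind, 2 as bidirectional promoter RNA, 1 as sense overlapping, and 2, LINC03040 and LINC02693, as protein-coding. The gene bodies of 12 overlapped a protein-coding gene, 9 of them shared exonic bases with it, and 7 had the start of a coding gene on the opposite strand within 1 kb. The sources used here do not say whether counting used strand, so reads of overlapping genes cannot be told apart. This holds for LINC00649 against ATP5PO, LINC00689 against VIPR2, LINC01089 against RHOF, and LINC02210 against its read-through transcript with CRHR1.

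The libraries held 73939612 to 160702764 recovered reads. The mean was 115899123 in DMSO 12 h, 86037870 in GSI 12 h, 127001043 in DMSO 48 h and 93986428 in GSI 48 h. GSI libraries were thus shallower on average, though single libraries overlapped. The part of depth in the treatment differences was not tested. All 15 T-lineage markers were present, with a summed value of 485447 to 575047, and the B-cell genes MS4A1 and CD22 and the epithelial gene EPCAM were at 0 in every library, while CD79A lay between 659 and 3042. NOTCH1 target genes fell more with the time label than with the treatment label. NRARP, a feedback inhibitor of Notch, stood at 42352 ± 6407 (SD, n = 3) in the libraries labelled DMSO 12 h, 21930 ± 4507 in GSI 12 h, 3030 ± 627 in DMSO 48 h and 1701 ± 337 in GSI 48 h. Of 16 NOTCH1 target genes, 9 were called lower with the GSI label and 13 were called lower with the 48 h label, each averaged over the other label. Every direction below is therefore one between labels, and phrases such as over time refer to the time label. Whether the DMSO 48 h and GSI 12 h labels are as intended was not tested. Exchanging them would exchange time and treatment in every averaged difference. In bulk RNA, fewer cells that make a transcript and less of it per cell cannot be told apart.

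Promoter windows from RefSeq, on its build GRCh38.p14 and running from 250 bases before to 50 bases after the annotated start, are printed for 5 RNAs whose levels carry the results below. They are 2 that fell with the time label, the one that rose with it, and 2 that rose with the treatment label. All windows were searched on both strands for TGGGAA, the core of the site of the Notch cofactor RBPJ, for CACGTG, the E-box that MYC binds, and for ACGTG, the core of the hypoxia response element, which is also contained in CACGTG. Capitals mark a TGGGAA, in either orientation, in LINC02762 and LINC02982 and an ACGTG, in either orientation, in LINC01679 and LINC00910, and LINC02273 held none of the 3. Windows of LINC00029, LINC02210, LINC01355 and LINC00526, which also follow a label by the rule below, are not printed and held none either. Of the 4 time followers with a window, 2 held TGGGAA and 0 held ACGTG. Of the 5 treatment followers with a window, 0 held TGGGAA and 2 held ACGTG.
LINC02762, chr11:112270499-112270798, plus strand: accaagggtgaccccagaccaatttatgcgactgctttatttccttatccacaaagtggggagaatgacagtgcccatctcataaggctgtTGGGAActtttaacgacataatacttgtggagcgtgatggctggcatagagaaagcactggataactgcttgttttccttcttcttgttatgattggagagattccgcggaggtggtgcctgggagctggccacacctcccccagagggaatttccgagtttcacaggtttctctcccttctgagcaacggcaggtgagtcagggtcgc
LINC02982, chr5:997291-997590, minus strand: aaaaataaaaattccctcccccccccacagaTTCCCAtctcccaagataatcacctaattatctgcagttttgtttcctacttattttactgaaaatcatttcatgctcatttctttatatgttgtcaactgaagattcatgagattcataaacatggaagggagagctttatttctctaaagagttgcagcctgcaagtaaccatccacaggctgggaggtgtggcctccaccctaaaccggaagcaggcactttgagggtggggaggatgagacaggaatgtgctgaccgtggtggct
LINC02273, chr4:152100503-152100802, plus strand: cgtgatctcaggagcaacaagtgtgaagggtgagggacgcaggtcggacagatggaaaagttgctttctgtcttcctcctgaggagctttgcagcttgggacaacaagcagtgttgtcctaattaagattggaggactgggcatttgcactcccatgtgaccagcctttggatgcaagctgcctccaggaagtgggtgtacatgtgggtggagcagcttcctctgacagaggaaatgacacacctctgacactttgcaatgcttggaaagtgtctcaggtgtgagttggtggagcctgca
LINC01679, chr21:43362300-43362599, minus strand: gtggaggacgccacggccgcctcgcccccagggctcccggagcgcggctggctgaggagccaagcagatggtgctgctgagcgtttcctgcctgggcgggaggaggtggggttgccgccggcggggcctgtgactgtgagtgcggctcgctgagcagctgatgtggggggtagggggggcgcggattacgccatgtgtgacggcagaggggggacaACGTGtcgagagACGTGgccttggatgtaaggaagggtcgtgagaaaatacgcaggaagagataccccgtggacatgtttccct
LINC00910, chr17:43388849-43389148, minus strand: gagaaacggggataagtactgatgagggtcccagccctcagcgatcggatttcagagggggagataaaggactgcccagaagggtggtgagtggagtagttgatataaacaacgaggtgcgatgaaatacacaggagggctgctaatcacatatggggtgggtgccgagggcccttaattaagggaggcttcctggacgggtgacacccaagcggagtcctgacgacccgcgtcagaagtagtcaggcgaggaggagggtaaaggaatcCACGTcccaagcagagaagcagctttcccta

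A window was matched by symbol for 83 of the 119, and 80 lay on the strand of the GENCODE gene and within 5 kb of it. TGGGAA was in 16 of the 80 (20.0%), against 24.3% of all 27305 RefSeq promoters. CACGTG was in 6 of the 80 (7.5%, against 7.43%), and ACGTG in 20 (25.0%, against 21.6%). Among the 31 with a window that were called higher with the GSI label, 7 held TGGGAA (22.6%) and 8 held ACGTG (25.8%), and among the 7 called lower with the 48 h label, 2 held TGGGAA (28.6%) and 0 held ACGTG. These shares are descriptions of the windows, and they lie near those of all promoters or rest on few windows.

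Levels covered a wide range. The mean normalised read count ran from 104 to 5686 with a median of 389, 30 RNAs were at 1000 or more, and 34 were under 200. The 8 highest, LINC00667 (5686), LINC01089 (5615), LINC01550 (5184), LINC03040 (4649.5), LINC01128 (4231), LINC00649 (4186), LINC00847 (3369) and LINC00461 (3181), held 32.5% of the summed value of all 119. Per kilobase of exon, which is the scale on which genes can be compared, LINC02520 was highest at 3237, followed by LINC00847 (1373), LINC01089 (1359), LINC00528 (1319) and LINC01891 (1295), while the median was 186. The lowest means inside the threshold belonged to LINC02846 (110.3), LINC02709 (108), LINC03033 (108) and LINC02916 (104), and the highest outside it to LINC03047 (97.5), LINC02870 (96.1), LINC01970 (93.1) and LINC02731 (92.9). LINC00667, the most abundant, had values of 5639, 6312 and 5873 in the DMSO 12 h libraries, 6060.2, 6032 and 4872 in the GSI 12 h, 5522, 6116 and 5296 in the DMSO 48 h and 6326, 5583 and 4604 in the GSI 48 h libraries. The 4 groups overlapped, and neither the treatment difference of -0.06 ± 0.09 (SE; adjusted p = 0.602) nor the time difference of -0.06 ± 0.09 (SE; adjusted p = 0.749) passed the test.

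The groups were compared gene by gene with limma on log2(value + 1) over all 12 libraries, with the threshold for a call at an adjusted p of 0.05 (Benjamini-Hochberg, 19281 genes). At 12 h, 39 of the 119 were called between the GSI and DMSO labels, 30 higher and 9 lower with GSI (32.8%, against 21.5% of all genes and 25.9% of genes with a mean of at least 100). Over all genes 10.1% were called higher and 11.4% lower there. At 48 h, 20 were called, 18 higher and 2 lower (16.8%, against 9.68% and 12.1%, with 4.33% higher and 5.35% lower over all genes), and with the replicate number as a block 45 were called, beside 27.3% of all genes in the same fit. Leaving out 1 library at a time gave 14 to 44 calls at 12 h and 2 to 31 at 48 h, where the lowest count came without GSI 48 h replicate 3. The shares of all genes in these refits are not given, so the ranges are no result about the LINC RNAs. Between 12 and 48 h, 14 were called in the DMSO groups, 5 higher and 9 lower at 48 h (11.8%, against 4.53% and 5.78%, with 2.03% higher and 2.51% lower over all genes). In the GSI groups 18 were called, 8 higher and 10 lower (15.1%, against 3.98% and 4.74%, with 1.62% higher and 2.37% lower). With the replicate block these counts were 31 and 32, beside 12.3% and 10.1% of all genes. With the block set within each treatment label they were 55 and 52, beside 29.2% and 28.8% of all genes. Between the groups that differ in both labels, 56 were called from DMSO 12 h to GSI 48 h, 37 higher and 19 lower (47.1%, against 34.2% and 40.7%, with 15.8% higher and 18.4% lower over all genes). From GSI 12 h to DMSO 48 h 23 were called, 4 higher and 19 lower (19.3%, against 11.8% and 13.9%, with 5.53% higher and 6.28% lower). In the plot of shares called, the LINC RNAs stood above all 3 other gene classes in each of the 6 comparisons.

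**Figure D1:**
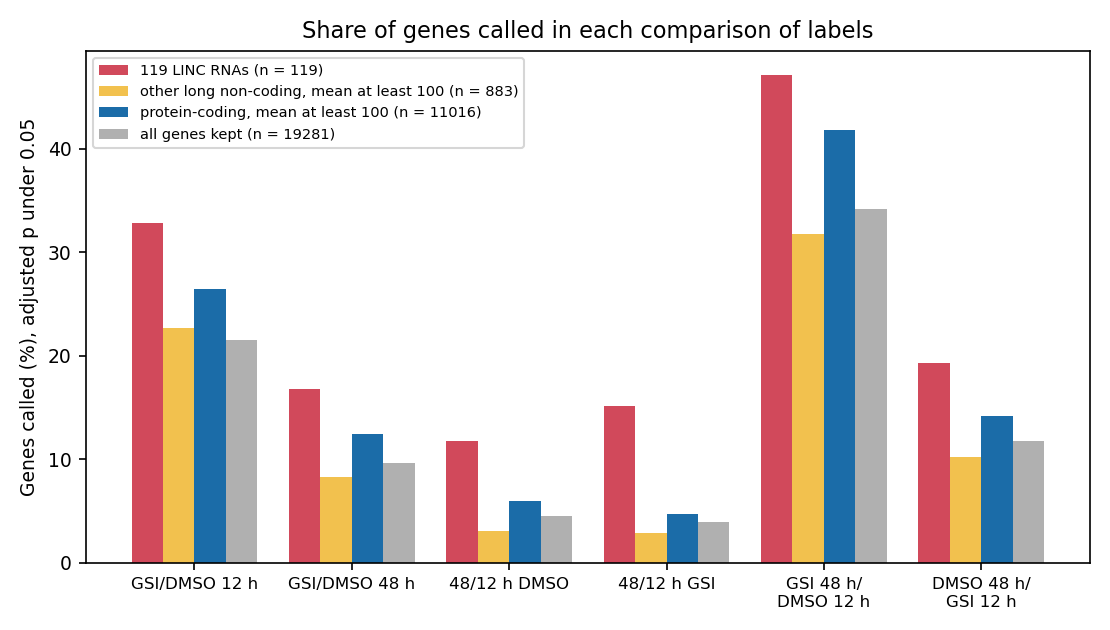
The vertical axis gives the percent of genes called (limma, adjusted p under 0.05) in each of 6 comparisons of labels. Bars stand for the 119 LINC RNAs, 883 other long non-coding genes and 11016 protein-coding genes with a mean of at least 100, and all 19281 genes kept. The LINC RNAs have the tallest bar in each comparison, from 11.8% between the DMSO groups to 47.1% between DMSO 12 h and GSI 48 h.

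Averaged over both times, 55 of the 119 were called for the treatment label, 43 higher and 12 lower with GSI (46.2%, against 37.5% of all genes and 43.3% of those with a mean of at least 100). The count was near the background. By direction, 17.5% of all genes were called higher and 19.9% lower, and of genes with a mean of at least 100 17.7% higher and 25.6% lower. The median difference of the 119 was 0.15 on the log2 scale, against -0.06 for protein-coding genes with a mean of at least 100. Other long non-coding genes leaned the same way. Of 883 with a mean of at least 100, 236 were called higher and 85 lower with a median of 0.15, and of the 224 LINC genes kept below the threshold, 57 were higher and 20 lower with a median of 0.25. Averaged over both treatments, 27 of the 119 were called for the time label, 14 higher and 13 lower at 48 h (22.7%, against 11.1% and 13.7%). Over all genes 4.91% were higher and 6.14% lower, and over those with a mean of at least 100 6.05% and 7.64%. The count was 43 with the replicate block, beside 20.9% of all genes, and 68 with the block within treatment, beside 38.7% of all genes. Among the other 883 long non-coding genes 7.47% were called for time. The averages called 17 RNAs for both labels, 38 for the treatment label alone, 10 for the time label alone and 54 for neither. Of the 17, 10 were higher in both, 5 lower in both and 2 higher with GSI but lower at 48 h. Such joint calls were not counted over all genes, so these counts only describe the 119.

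**Figure D2:**
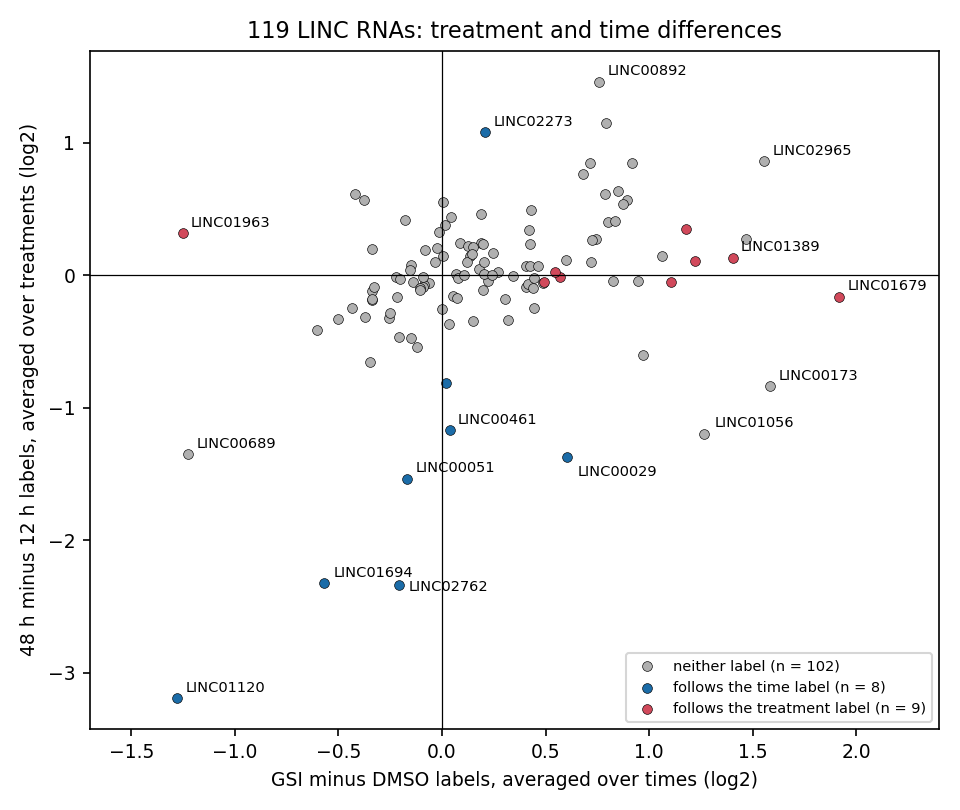
Each point is 1 of the 119 LINC RNAs, with the averaged GSI minus DMSO difference on the horizontal axis and the averaged 48 h minus 12 h difference on the vertical axis, both in log2 units. The 8 that follow the time label differ more by time than by treatment, down to -3.19 for LINC01120, which also lies at -1.28 for treatment. The 9 that follow the treatment label differ more by treatment, out to 1.92 for LINC01679.

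An RNA was said to follow the time label where both comparisons of groups that differ in both labels were called with the same sign, so that the time difference outweighed the treatment difference whichever way the treatment label ran, and to follow the treatment label where they were called with opposite signs. These subsets rest on the calls themselves and are given as descriptions. By this rule 8 of the 119 followed the time label, 1 higher and 7 lower at 48 h (6.72%, against 1.9% of all genes and 2.25% of those with a mean of at least 100, with 0.742% higher and 1.16% lower over all genes). The treatment label was followed by 9, 8 higher and 1 lower (7.56%, against 4.56% and 5.57%, with 2.62% higher and 1.94% lower). The time count was 7 to 8 when 1 library at a time was left out. The treatment count was 4 to 15, with 4 without GSI 12 h replicate 1 or DMSO 48 h replicate 1, 5 without DMSO 48 h replicate 2 and 15 without GSI 12 h replicate 2. By DESeq2 the treatment count was 14, against 7.27% of all genes. For the counts with libraries left out no share of all genes is given, so they are no result about the LINC RNAs.

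The largest falls over time were in LINC01120, LINC02762 and LINC01694, each with a mean below 389, the median of the 119. LINC01120 (ENSG00000223631, chromosome 2) had values of 272, 685 and 614 in the DMSO 12 h libraries, 143, 289 and 146 in the GSI 12 h, 66.6, 37.0 and 43.8 in the DMSO 48 h and 21.6, 21.5 and 20.0 in the GSI 48 h libraries. All 6 libraries at 48 h were below all 6 at 12 h, and within each time the GSI group lay lower, without overlap at 48 h. Its averaged time difference was -3.19 ± 0.25 (SE; adjusted p = 3.82e-06) and its treatment difference -1.28 ± 0.25 (SE; adjusted p = 0.0024). It also had the widest range over libraries of the 119, with the highest value 34.4 times the lowest. LINC02762 (ENSG00000250303, chromosome 11) had values of 494, 524 and 359.8 in the DMSO 12 h libraries, 319.7, 276 and 360.0 in the GSI 12 h, 96.0, 83.8 and 46.0 in the DMSO 48 h and 91.6, 55.7 and 89.1 in the GSI 48 h libraries. The 2 times did not overlap, and within 48 h the treatments did. It fell by 2.33 ± 0.20 (SE, log2; adjusted p = 6.07e-06) with time, while the treatment difference of -0.21 ± 0.20 (SE; adjusted p = 0.424) did not pass. LINC01694 (ENSG00000233922, chromosome 21) had values of 422, 576 and 448 in the DMSO 12 h libraries, 305, 294 and 290.1 in the GSI 12 h, 80.9, 124 and 66.2 in the DMSO 48 h and 81.5, 53.4 and 58.5 in the GSI 48 h libraries. Again no 48 h library reached a 12 h library, and at 12 h all GSI libraries were below all DMSO libraries. The differences were -2.32 ± 0.17 (SE; adjusted p = 1.85e-06) for time and -0.57 ± 0.17 (SE; adjusted p = 0.0168) for treatment.

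LINC00461 (ENSG00000245526, chromosome 5), the most abundant RNA that followed the time label, is the host transcript of a copy of the microRNA miR-9. It had values of 4399.7, 4735 and 4549 in the DMSO 12 h libraries, 4212, 4097 and 4425 in the GSI 12 h, 1893, 1696 and 1927 in the DMSO 48 h and 2239, 1929.9 and 2067 in the GSI 48 h libraries. The 12 h libraries formed one tight cluster and the 48 h libraries another, each with both treatments in it, although at 48 h every GSI library stood slightly above every DMSO library. Its time difference was -1.17 ± 0.06 (SE; adjusted p = 1.48e-07), the smallest adjusted p for time among the 119, and its treatment difference was 0.04 ± 0.06 (SE; adjusted p = 0.676), which did not pass. LINC02982 (ENSG00000215246, chromosome 5) had values of 2783, 3498 and 3956 in the DMSO 12 h libraries, 3442, 3452 and 3952 in the GSI 12 h, 1892, 1930.1 and 2294 in the DMSO 48 h and 1809, 1819 and 2253 in the GSI 48 h libraries. The times were apart and the treatments overlapped at each time, with differences of -0.81 ± 0.10 (SE; adjusted p = 0.000135) and 0.02 ± 0.10 (SE; adjusted p = 0.9). LINC00051 on chromosome 8 fell as well, by 1.54 ± 0.22 (SE, log2; adjusted p = 0.000617), from 234 to 352 in the 6 libraries at 12 h to 55.0 to 155 in those at 48 h. LINC00689, which shares exonic bases with VIPR2 on the opposite strand, was lower for both labels, at -1.35 ± 0.18 (SE; adjusted p = 0.00034) for time and -1.22 ± 0.18 (SE; adjusted p = 0.000534) for treatment, with 1822, 1529 and 1265 in the DMSO 12 h libraries, 505, 896 and 697 in the GSI 12 h, 859.9, 649 and 437 in the DMSO 48 h and 224, 321 and 230.1 in the GSI 48 h libraries. DMSO 12 h was the highest group and GSI 48 h the lowest, and the 2 groups in between overlapped.

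LINC02273 (ENSG00000245954, chromosome 4) was the single RNA that followed the time label upward. It had values of 1111, 884 and 968 in the DMSO 12 h libraries, 1264, 1270.4 and 859.7 in the GSI 12 h, 2108, 2051 and 1948 in the DMSO 48 h and 2864, 2383 and 2019 in the GSI 48 h libraries. All 48 h libraries were above all 12 h libraries, and the treatments overlapped at each time. The time difference was 1.08 ± 0.11 (SE; adjusted p = 4.70e-05) and the treatment difference 0.21 ± 0.11 (SE; adjusted p = 0.171). LINC00892 (ENSG00000233093, chromosome X) had the largest rise over time and rose with the treatment label as well, with values of 186, 193 and 376 in the DMSO 12 h libraries, 424, 467 and 381 in the GSI 12 h, 493, 769 and 855 in the DMSO 48 h and 1275, 783 and 1375 in the GSI 48 h libraries. The 12 h values were all below the 48 h values, and GSI lay above DMSO at 12 h in every library but overlapped at 48 h. The differences were 1.46 ± 0.20 (SE; adjusted p = 0.000445) and 0.76 ± 0.20 (SE; adjusted p = 0.0111). LINC01801, LINC02965, LINC00324 and LINC01891 were likewise called higher for both labels, with time differences of 1.15, 0.86, 0.85 and 0.85 and treatment differences of 0.79, 1.55, 0.71 and 0.92 (log2). LINC00324 showed the ordered pattern, with 212, 152 and 216 in the DMSO 12 h libraries, 298, 263 and 263 in the GSI 12 h, 277, 294 and 338 in the DMSO 48 h and 536, 579.7 and 583 in the GSI 48 h libraries. Its lowest group was DMSO 12 h and its highest GSI 48 h, and the 2 groups in between overlapped. Across the 119, all 6 libraries at 48 h were above all 6 at 12 h for 2 RNAs and below for 8 (over all genes 1.52% and 1.93%, together 3.45%, and 4.07% of those with a mean of at least 100).

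**Figure D3:**
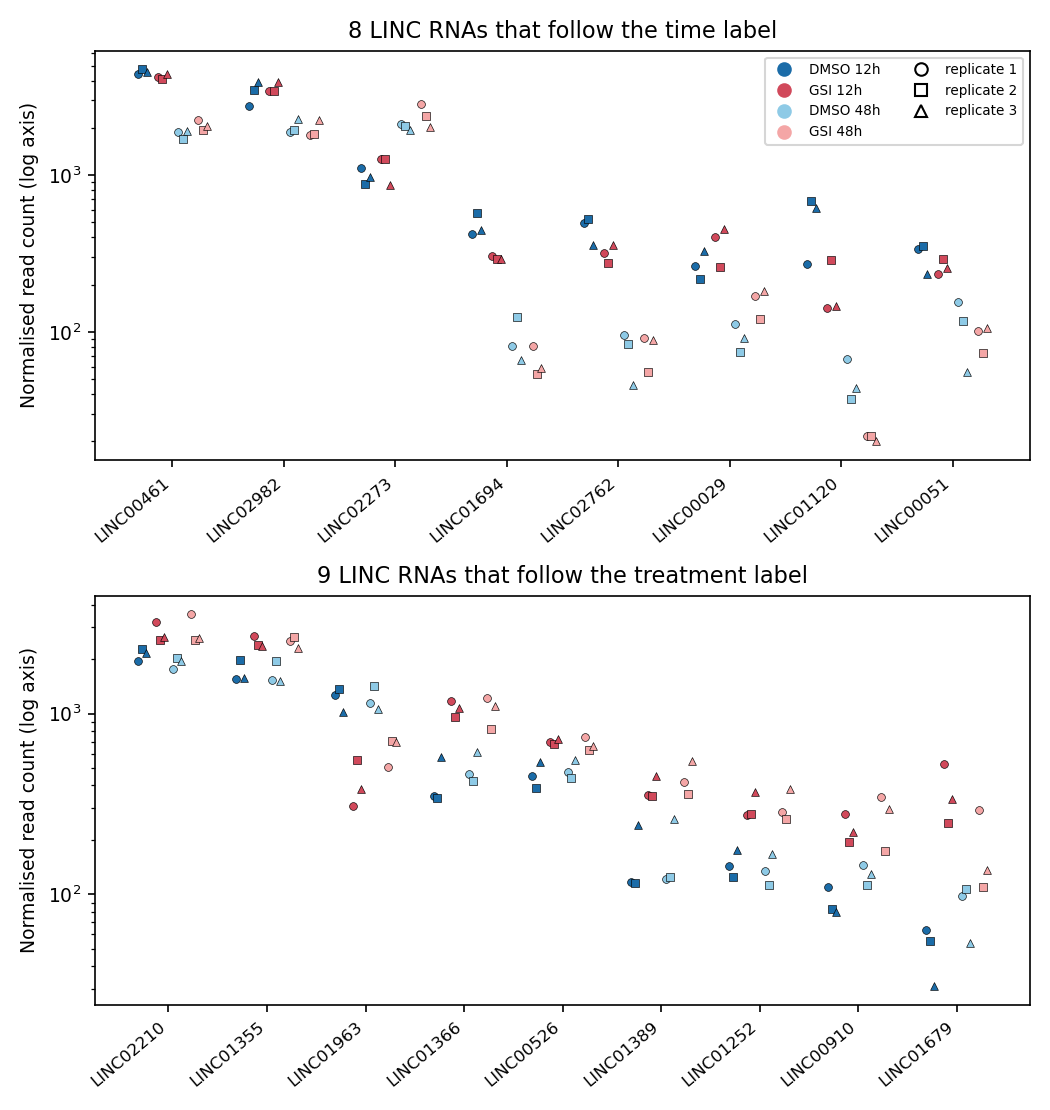
Normalised read counts on a log axis for each of the 12 libraries, coloured by group and shaped by replicate number, for the 8 LINC RNAs that follow the time label (top) and the 9 that follow the treatment label (bottom). In the top panel dark points (12 h) and pale points (48 h) separate, as for LINC00461, and in the bottom panel the red GSI points and blue DMSO points separate, as for LINC01252.

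With the treatment label, LINC01679 (ENSG00000237989, chromosome 21) rose most. It had values of 63.7, 54.9 and 30.9 in the DMSO 12 h libraries, 527, 247 and 338 in the GSI 12 h, 98.4, 107 and 53.9 in the DMSO 48 h and 293, 109.9 and 136 in the GSI 48 h libraries. All 6 GSI libraries were above all 6 DMSO libraries, though GSI 48 h replicate 2 stood only just above the highest DMSO 48 h value. Its averaged difference was 1.92 ± 0.29 (SE; adjusted p = 0.000548). The rise was 2.86 ± 0.40 (SE; adjusted p = 0.00196) at 12 h, and the 0.97 ± 0.40 (SE; adjusted p = 0.128) at 48 h did not pass. The change of its treatment difference from 12 to 48 h was -1.89 ± 0.57 (SE; adjusted p = 0.79) by limma, which did not pass. With the replicate number as a block within treatment, a pairing that held over time, the adjusted p was 0.000443. LINC01389 (ENSG00000225762, chromosome 1) had values of 118, 116 and 241 in the DMSO 12 h libraries, 356, 349 and 454 in the GSI 12 h, 121, 125 and 263 in the DMSO 48 h and 418, 357 and 545 in the GSI 48 h libraries. GSI and DMSO did not overlap, and replicate 3 was the highest of each group. The difference was 1.40 ± 0.23 (SE; adjusted p = 0.000849). LINC01366 (ENSG00000235172, chromosome 5) had values of 348, 342 and 576 in the DMSO 12 h libraries, 1175, 952 and 1079 in the GSI 12 h, 465, 421 and 609 in the DMSO 48 h and 1222, 819 and 1096 in the GSI 48 h libraries. The groups with the same treatment label overlapped across times and those with different labels did not, with 1.22 ± 0.15 (SE; adjusted p = 0.000283) for treatment and 0.11 ± 0.15 (SE; adjusted p = 0.732) for time.

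LINC01252 (ENSG00000247157, chromosome 12) had values of 143, 125 and 175 in the DMSO 12 h libraries, 276, 279.6 and 369 in the GSI 12 h, 135, 113 and 166 in the DMSO 48 h and 286, 261 and 380.4 in the GSI 48 h libraries. The DMSO groups of both times overlapped, as did the GSI groups, and every GSI library was above every DMSO library, at 1.11 ± 0.15 (SE; adjusted p = 0.000345). LINC01355 (ENSG00000261326, chromosome 1), a more abundant RNA, had values of 1559, 1982 and 1583 in the DMSO 12 h libraries, 2694, 2400.4 and 2361 in the GSI 12 h, 1533, 1949.6 and 1514 in the DMSO 48 h and 2522, 2649 and 2317 in the GSI 48 h libraries. Every GSI library exceeded every DMSO library, by 0.57 ± 0.09 (SE; adjusted p = 0.000703) on average. The remaining RNAs that followed the treatment label upward were LINC00910, LINC00526 and LINC02210, at 1.18 ± 0.17 (SE; adjusted p = 0.000534), 0.54 ± 0.10 (SE; adjusted p = 0.00166) and 0.49 ± 0.09 (SE; adjusted p = 0.00202), each with all GSI libraries above all DMSO libraries. LINC00649 (mean 4186) and LINC03040 (mean 4649.5) rose among the most abundant, by 0.89 ± 0.11 (SE; adjusted p = 0.000283) and 0.80 ± 0.14 (SE; adjusted p = 0.00132), while the similarly abundant LINC01128 fell by 0.34 ± 0.07 (SE, log2; adjusted p = 0.00363). LINC00173, LINC02965, LINC02580 and LINC01056 were the other large rises, at 1.58, 1.55, 1.47 and 1.27 (log2). In all, the 6 GSI libraries were above the 6 DMSO libraries for 16 of the 119 and below for 1 (over all genes 5.48% and 5.66%, together 11.1%, and 13.2% of those with a mean of at least 100). At both times 15 were called higher and 2 lower with GSI (over all genes 3.05% and 3.75%), and 0 were called in opposite directions (over all genes 0.0259%).

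LINC01963 (ENSG00000260804, chromosome 2) was the single RNA that followed the treatment label downward. It had values of 1266, 1365 and 1024 in the DMSO 12 h libraries, 309, 557 and 384 in the GSI 12 h, 1150.3, 1414 and 1064 in the DMSO 48 h and 509, 708 and 699.6 in the GSI 48 h libraries. All GSI libraries were below all DMSO libraries, and the DMSO groups of the 2 times overlapped. The averaged treatment difference was -1.25 ± 0.15 (SE; adjusted p = 0.000214) and the time difference 0.32 ± 0.15 (SE; adjusted p = 0.209), which did not pass. LINC02693 and LINC01307 were lower with GSI by smaller amounts, at -0.60 ± 0.17 (SE; adjusted p = 0.0126) and -0.50 ± 0.12 (SE; adjusted p = 0.00553), with all GSI libraries below all DMSO libraries at 12 h for both, at 48 h for LINC01307 alone, and overlap once the times were pooled.

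LINC00029 and LINC01056, neighbours on chromosome 20 with no coding gene between them, were the 2 called higher with GSI and lower at 48 h. LINC00029 (ENSG00000125514) had values of 262, 216 and 327 in the DMSO 12 h libraries, 405, 261 and 451 in the GSI 12 h, 113, 74.7 and 90.9 in the DMSO 48 h and 169, 121 and 182 in the GSI 48 h libraries. Every 48 h library was below every 12 h library, and at 48 h GSI lay above DMSO. The differences were 0.61 ± 0.18 (SE; adjusted p = 0.017) for treatment and -1.37 ± 0.18 (SE; adjusted p = 0.000238) for time. LINC01056 (ENSG00000237119) had values of 151, 90.9 and 207 in the DMSO 12 h libraries, 352, 152 and 477 in the GSI 12 h, 82.5, 36.4 and 48.3 in the DMSO 48 h and 177, 93.5 and 199.5 in the GSI 48 h libraries. Replicate 2 was the lowest in every group, GSI 12 h overlapped DMSO 12 h, and the differences were 1.27 ± 0.31 (SE; adjusted p = 0.00774) and -1.20 ± 0.31 (SE; adjusted p = 0.026). In the comparison of DMSO 48 h with GSI 12 h, LINC01056 (-2.46 ± 0.44, SE), LINC00173 (-2.42 ± 0.36), LINC02762 (-2.12 ± 0.28) and LINC01679 (-2.08 ± 0.40) fell most. The 4 called higher there were LINC01963 (1.57 ± 0.21), LINC02295 (1.03 ± 0.23), LINC02273 (0.87 ± 0.16) and LINC00342 (0.53 ± 0.11), with adjusted p of 0.00127, 0.0161, 0.00723 and 0.0135.

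The treatment difference was also compared between the times. By limma 0 of the 119 were called for a change of the treatment difference with time, as was 0 of all genes (0.0%), with 10 of the 119 and 875 of all genes at an unadjusted p under 0.05. edgeR also called 0, DESeq2 called 1, LINC00963 (0.364% of all genes), and limma with the block within treatment called 12, LINC01679 and LINC00963 with the smallest adjusted p, beside 6.1% of all genes.

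The hypoxia response genes, a list of 28 that includes ADM, CA9 and VEGFA, were higher in the GSI libraries, and 28 were called for the averaged treatment label. The median of this list in each library, against its mean over the 12 libraries, was 1.68, 0.22 and 1.79 in GSI 12 h and 1.16, -0.18 and 0.67 in GSI 48 h, and between -1.06 and -0.67 in the 6 DMSO libraries (log2). The 43 LINC RNAs called higher with GSI had medians of 0.44, 0.09 and 0.34 in GSI 12 h and 0.57, 0.18 and 0.47 in GSI 48 h. In DMSO 12 h their medians were -0.47, -0.80 and -0.30, and in DMSO 48 h -0.23, -0.30 and -0.09. In both lists, and over all 119, replicate 2 was the lowest of every group, the DMSO groups included. The highest GSI library at 12 h was replicate 3 for the hypoxia list and replicate 1 for the LINC RNAs. The part of the hypoxia response in the LINC differences was not tested. Without both GSI libraries numbered 2, 34 RNAs were called at 48 h, 29 higher and 5 lower, and 21.0% of all genes were called in the same fit. The 7 RNAs that followed the time label downward, chosen by that fall, had library medians of 0.54 to 1.09 at 12 h and -1.17 to -0.62 at 48 h. The 16 NOTCH1 target genes had 0.34 to 1.09 and -0.98 to -0.38, and a relation between the lists was not tested.

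**Figure D4:**
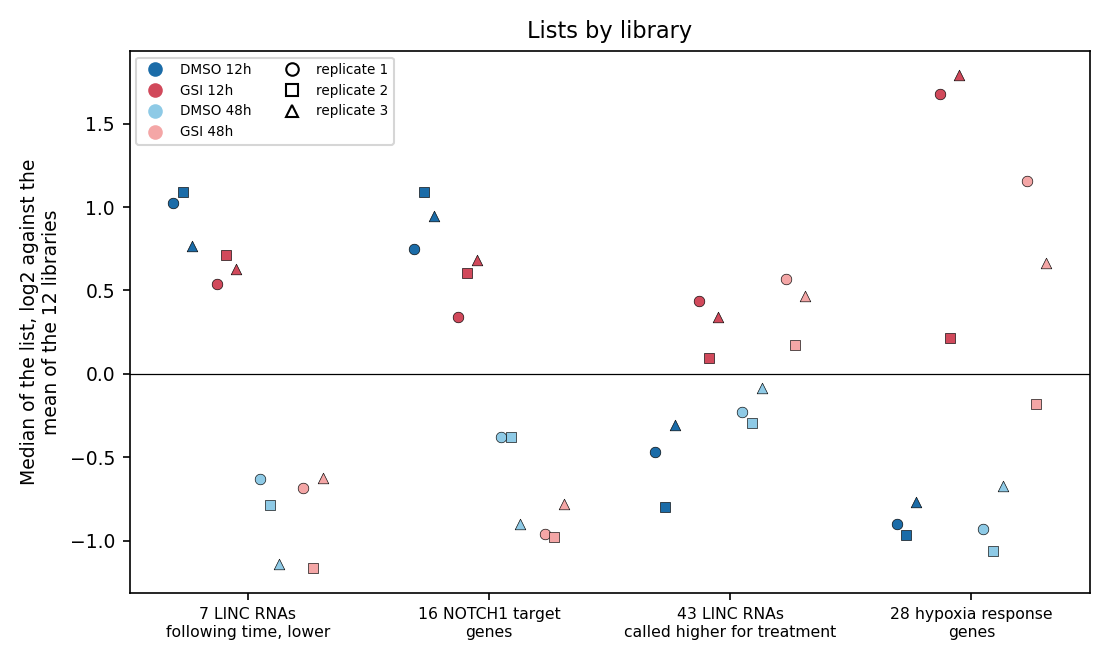
The vertical axis gives, for each of the 12 libraries, the median of a gene list as log2 against the mean of the 12 libraries, for 4 lists on the horizontal axis, with colour for the group and shape for the replicate number. The 7 LINC RNAs that fell with time and the NOTCH1 target genes separate dark (12 h) from pale (48 h) points. Both LINC lists were chosen by their calls in these same libraries, so their separation by label was set by that choice. In the 43 LINC RNAs called higher with GSI and the hypoxia response genes the squares (replicate 2) are the lowest points of every group, GSI and DMSO alike.

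The nearest protein-coding gene in GENCODE 29 was kept in the test for 102 of the 119. Over these pairs the LINC RNA and its neighbour moved together only in part. Pearson's r of the 2 log2 differences was 0.35 for the treatment label and 0.47 for the time label (Spearman's rho 0.31 and 0.43), and over the 91 pairs in which the LINC gene overlapped no coding gene it was 0.38 and 0.47. These are correlations across genes from the same 12 libraries, and some pairs share a neighbour. Of 12 RNAs called lower at 48 h that had a kept neighbour, 9 had a neighbour called lower and 0 one called higher (over all genes 6.14% were lower). Of 13 called higher, 5 had a neighbour called higher and 0 one called lower (over all genes 4.91% were higher). For the treatment label the pairs leaned the same way but were mixed. Of 36 RNAs called higher, 12 had a neighbour called higher (33.3%) and 8 one called lower (22.2%). Over all genes 17.5% were higher and 19.9% lower. Of 9 RNAs called lower, 4 had a neighbour called lower and 1 had one called higher. Of the 57 not called, 7.02% had a neighbour called higher and 31.6% one called lower.

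LINC00892 lies beside CD40LG, which encodes the CD40 ligand of activated T cells. CD40LG was low, at 15.8 ± 11.7 (SD, n = 3) in DMSO 12 h, 19.0 ± 4.74 in GSI 12 h, 29.3 ± 4.91 in DMSO 48 h and 75.9 ± 31.9 in GSI 48 h, and rose with time by 1.52 ± 0.37 (SE; adjusted p = 0.0186). LINC01221 and LINC01222, whose gene bodies overlap each other, lie beside PTPRC, the gene of the leukocyte phosphatase CD45. PTPRC rose with time by 0.80 ± 0.07 (SE; adjusted p = 7.57e-06) and with the treatment label by 0.50 ± 0.07 (SE; adjusted p = 0.000409), and LINC01222 by 0.76 ± 0.14 (SE; adjusted p = 0.00299) and 0.68 ± 0.14 (SE; adjusted p = 0.00266). LINC02982 and its neighbour NKD2, a Wnt pathway inhibitor, fell together over time, NKD2 with -1.28 ± 0.13 (SE; adjusted p = 2.92e-05). Neither passed the test for the treatment label. LINC01694 and PCBP3, an RNA-binding protein gene, both fell, PCBP3 with -1.10 ± 0.09 (SE; adjusted p = 3.50e-06) for time. BHLHE23, a basic helix-loop-helix factor gene beside LINC00029 and LINC01056, fell over time by 1.21 ± 0.15 (SE; adjusted p = 0.000211) like them, but was lower with the treatment label, at -0.44 ± 0.15 (SE; adjusted p = 0.0395), where they were higher.

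LINC02273 rose over time, and its neighbour FBXW7, the ubiquitin ligase subunit that targets Notch and MYC for degradation, had a difference of 0.08 ± 0.07 (SE; adjusted p = 0.514). LINC00461 fell, and its neighbour MEF2C was near the filter, at 13.9 ± 4.92 (SD, n = 3) in DMSO 12 h and 10.7 ± 2.87 in GSI 48 h. LINC01679 rose with the treatment label and its neighbour SIK1, a salt-inducible kinase gene, did not pass there, at 0.11 ± 0.21 (SE; adjusted p = 0.722). SIK1 fell over time by 1.28 ± 0.21 (SE; adjusted p = 0.00172) while LINC01679 did not pass. LINC02580 and ZFP36L2, a gene of an RNA-destabilising zinc-finger protein, both rose with the treatment label, ZFP36L2 by 0.76 ± 0.19 (SE; adjusted p = 0.00776). Of the 119, 13 pairs were adjacent with no coding gene between them, and in 5 of these the gene bodies overlapped. LINC01801 and LINC02965 on chromosome 19 formed such a pair without overlap, and both were higher for both labels.

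**Figure D5:**
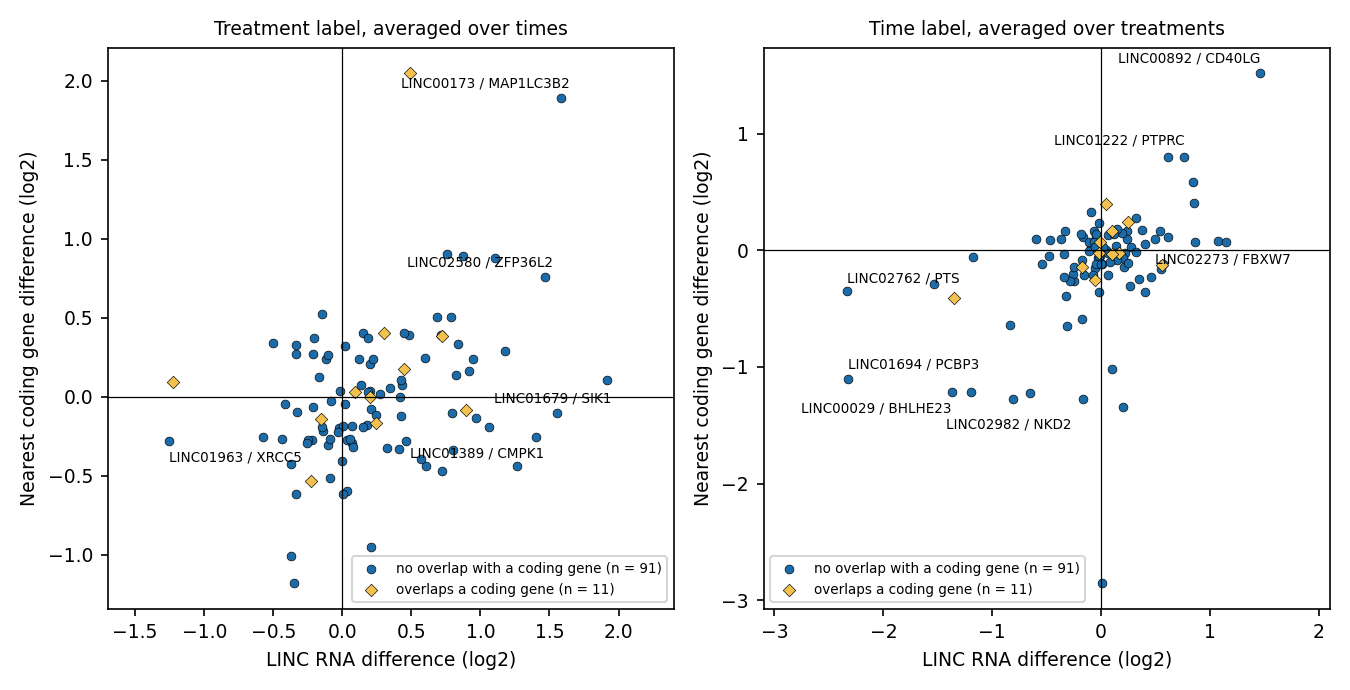
Each point is a LINC RNA and its nearest protein-coding gene, with the log2 difference of the LINC RNA on the horizontal and that of the coding gene on the vertical axis, for the averaged treatment label (left) and the averaged time label (right), over 102 pairs, of which 11 have a LINC gene that overlaps a coding gene. On the right LINC00892 and CD40LG stand high together and LINC01694 and PCBP3 low together (Pearson's r 0.47), and on the left the scatter is wider (Pearson's r 0.35).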

How the data were processed

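Poly-A RNA of CUTLL1 cells was sequenced in 12 libraries, 3 for each of 4 groups given by the labels. The submitters' processing notes name DESeq2 without a version, TopHat2 2.0.10, HTSeq 0.6.1, FastQC 0.10.1 and the build hg19, while annotation, settings and strand use were not given in those sources. What the authors deposited is a signal, namely gene counts over a size factor of each library, and 100% of them came out as whole reads within a tolerance of 0.01 when divided by the value of 1 read, which gave 73939612 to 160702764 reads per library. A gene near the filter rests on few reads, so depth limits the lowest values.

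Kept were genes that reached a value of 10 in 3 or more libraries. limma 3.58.1 (R 4.3.3, trended prior) was fitted to log2(value + 1), a scale that understates changes of low genes, with 1 coefficient per group and without a term for the replicate, and all adjusted p-values are from this fit over all genes kept unless another tool is named. SE is limma's moderated standard error. edgeR 4.0.16 (quasi-likelihood test) and DESeq2 1.42.0 on the recovered reads, another pseudocount, filter, scaling, mean threshold and replicate block, and leaving out libraries, were alternatives. edgeR called 4201 genes between treatments at 12 h, 1914 at 48 h, 931 with time in DMSO and 740 with time in GSI. The fit was also run on simulated reads drawn independently for each library. Such reads hold no correlation between same-numbered libraries, so that run says nothing about leaving out the replicate term.

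Deviations of same-numbered libraries from their group means were compared over genes. All 3 pairs correlated above 0.1 between the times within each treatment label (r from 0.40 to 0.61) and between treatments at 48 h (0.10 to 0.16). Between treatments at 12 h r was 0.07 to 0.27, and libraries of different numbers reached 0.14. By the cut-off of 0.1 numbers were taken to pair libraries over time and at 48 h. Between treatments the values were weak and did not set 48 h apart from 12 h.

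The members, lists and tests were chosen with earlier results of these data known. Named were the 8 of highest mean, the 6 largest rises and falls among those called for each averaged label, 4 each way for DMSO 48 h against GSI 12 h, all called for the change of the treatment difference, 4 on each side of the threshold, and nearest coding genes. All RNAs that follow a label, and further ones with notable annotation, were added after their values were seen. Neighbours and annotation came from GENCODE 29 in place of RefSeq, whose table gives some scaffold positions, and the files' own build differs, so no gene coordinates are given. RefSeq matched 116 of the 119 symbols or identifiers, and 3 promoters far from the GENCODE gene were not used.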

Additional observations from a re-analysis of the deposited data

Results flagged for a closer look

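LINC00963 (ENSG00000204054, chromosome 9) had values of 310.5, 239 and 181 in the DMSO 12 h libraries, 372, 334 and 489 in the GSI 12 h, 380.0, 360.4 and 259 in the DMSO 48 h and 196, 199 and 202 in the GSI 48 h libraries. The GSI libraries were all above the DMSO libraries at 12 h and all below them at 48 h, which is why it was singled out. The treatment difference was 0.72 ± 0.21 (SE; adjusted p = 0.0307) at 12 h and -0.72 ± 0.21 (SE; adjusted p = 0.0503) at 48 h by limma. The change of that difference from 12 to 48 h was -1.44 ± 0.30 (SE, log2), with an adjusted p of 0.217 by limma, 0.00253 by DESeq2 and 0.000704 by limma with the replicate number as a block within treatment. It was called by the last 2 and not by the first, and no other of the 119 had groups that separated in opposite directions at the 2 times.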

How the results depend on the processing

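Counts of called LINC RNAs depended on how replicates entered the fit, and so did the shares of all genes. Counts in this section without such a share are no result about the LINC RNAs. With the replicate block 60 were called at 12 h and 43 between GSI 12 h and DMSO 48 h. At 48 h 45 were called (beside 27.3% of all genes), over time 31 in DMSO (12.3%) and 32 in GSI (10.1%), and for averaged time 43 (20.9%). The treatment label was followed by 23, beside 14.1% of all genes. With the block within treatment 55, 52 and 68 were called for time in DMSO, in GSI and averaged, beside 29.2%, 28.8% and 38.7% of all genes. For the change of the treatment difference 12 were called, beside 6.1% of all genes. The pairing by number was clear over time, while between treatments its correlations were weak at 12 h and at 48 h alike. DESeq2 called 34 at 48 h and 24 in DMSO over time. It called 1 for the change of the treatment difference (0.364% of all genes) and had 14 following the treatment label (7.27% of all genes). Without both GSI libraries numbered 2, 34 were called at 48 h (beside 21.0% of all genes), 36 between GSI 12 h and DMSO 48 h, and 19 followed the treatment label.

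Leaving out 1 library at a time gave 14 to 44 at 12 h, 2 to 31 at 48 h, 9 to 17 in DMSO over time, 12 to 19 in GSI over time, 42 to 56 from DMSO 12 h to GSI 48 h, 16 to 33 from GSI 12 h to DMSO 48 h, 45 to 58 for averaged treatment, 20 to 27 for averaged time, 7 to 8 following the time label, 4 to 15 following the treatment label, and 0 for the change of the treatment difference. Over time in DMSO the count was 9 without DMSO 12 h replicate 2 or DMSO 48 h replicate 3. At 12 h it was 14 without DMSO 12 h replicate 2, 16 without GSI 12 h replicate 1 and 23 without GSI 12 h replicate 3. At 48 h it was 4, 7 and 14 without DMSO 48 h replicates 1, 2 and 3, and 3, 31 and 2 without GSI 48 h replicates 1, 2 and 3, and 30 without GSI 12 h replicate 2. Those following the treatment label were 4 without GSI 12 h replicate 1, 4 and 5 without DMSO 48 h replicates 1 and 2, and 15 without GSI 12 h replicate 2. No shared call changed its direction in any alternative, but refits of the same libraries leave little room for such a change. Upper-quartile scaling moved the median of all genes by 0.12 (log2) between DMSO 12 h and GSI 48 h and split the calls for averaged treatment 47 higher to 9 lower. The cause of these shifts was not tested. Depth limits the RNAs of lowest mean most.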
